A study of Mus musculus with 74 samples.

Results

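RNA of intestinal epithelium in which Cdx2 is labelled as deleted at E10 (3 libraries) was compared with that labelled as deleted at E13 (2 libraries). These 5 of the 74 samples of the series, which holds 31 RNA libraries, were chosen by their labels alone. All 5 are labelled as small intestine epithelium of embryos at E16 on a B6;129 mixed background, released with trypsin and sorted for Epcam. The first group carried the floxed gene with Shh-Cre (Cdx2f/f; Shh-Cre) and received no treatment. The second carried it with Villin-Cre (Cdx2f/f; Villin-Cre) and is labelled with an oral gavage of 5 mg tamoxifen. Shh-Cre acts in gut endoderm of the early embryo and Villin-Cre in the epithelium of the intestine, so the day of deletion, the driver and the tamoxifen differ together and cannot be told apart. The labels do not say which animals or pools the libraries came from. The p-values measure the spread between libraries of the same group over the 27 embryonic libraries fitted, and that spread may be technical. WT small intestine, hindstomach (the glandular stomach) and forestomach (the squamous stomach) at E16, with 2 libraries each, are given beside the results as levels with no test.

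Cdx2 is the homeobox transcription factor that sets intestinal identity in the embryonic endoderm and later keeps enterocyte genes active. Endoderm that loses it early takes on features of the foregut, whose own regulators, such as Sox2, Trp63 and Pitx1, belong to the stomach and oesophagus. The fetal intestine also changes with age on its own, from a proliferating epithelium rich in imprinted growth RNAs to a villus epithelium that digests, absorbs and detoxifies.

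Values are CPM, the counts of a gene relative to all counts of its library, scaled by library composition, and differences are log2 fold changes of the E10 over the E13 libraries with the standard error (SE). A gene was called at an edgeR adjusted p under 0.05 together with a difference of 1 or more, up or down, on the log2 scale. Higher and lower always refer to the libraries labelled E10 relative to those labelled E13. A gene at 3 counts or fewer in every library of a group was taken as at the floor, and its fold is then given as a lower bound against that floor. The floor covers counting error only. Libraries held 12812432 to 22997638 counts in the group labelled E10 and 31250161 to 33756871 in the group labelled E13.

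The sequences at the start sites of the most abundant gene of each group are shown because these genes carried the greatest share of counts, Cym in the libraries labelled E10 and Akp3 in those labelled E13. Each line gives 250 bases before to 50 after the RefSeq gene start, from the GRCm38.p6 assembly. The capitals mark letters matching TTTATNG or its reverse complement CNATAAA, letters that Cdx factors are known to bind, searched on both strands.
Cym, chr3:107221683-107221982, minus strand: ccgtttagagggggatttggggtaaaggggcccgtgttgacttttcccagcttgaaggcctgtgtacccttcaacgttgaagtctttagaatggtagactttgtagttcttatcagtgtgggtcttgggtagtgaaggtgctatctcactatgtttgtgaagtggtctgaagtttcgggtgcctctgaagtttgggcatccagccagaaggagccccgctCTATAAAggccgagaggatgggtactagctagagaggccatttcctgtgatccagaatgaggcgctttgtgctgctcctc
Akp3, chr1:87124704-87125003, plus strand: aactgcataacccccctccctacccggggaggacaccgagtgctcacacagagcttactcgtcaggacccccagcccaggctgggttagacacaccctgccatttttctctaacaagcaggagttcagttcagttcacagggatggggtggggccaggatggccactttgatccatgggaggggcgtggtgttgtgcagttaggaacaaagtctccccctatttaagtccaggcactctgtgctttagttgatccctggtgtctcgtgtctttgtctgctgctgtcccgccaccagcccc
The match before Cym starts 30 bases upstream of the gene start and overlaps the letters TATAAA of a TATA box, and the Akp3 window holds no match. Promoters were found for 12705 of the 17239 genes tested. The motif was in 9.0% of the 3557 promoters of genes higher in E10, in 8.7% of the 3818 of genes lower, and in 9.1% of all 12705. These shares were close to each other and are a description, with no test.

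Cdx2 RNA was low in the libraries labelled E10 and not in those labelled E13. It was at 17.4, 14.5 and 27.5 CPM in the libraries labelled E10 and at 213 and 217 CPM in those labelled E13. WT small intestine at E16 had 196 and 218 CPM, and all 3 libraries labelled E10 lay below it. Without scaling by composition, Cdx2 was at 152 and 156 CPM in the libraries labelled E13 and at 213 and 239 CPM in E16 WT, so whether the E13 level was below WT depends on the scaling. The difference of E10 from E13 on the scaled values was -3.45 (SE 0.27, edgeR adjusted p = 1.6e-09). Counts per gene do not show whether the floxed exon was present, so the level alone does not check the knockout label. On the unscaled values the other Villin-Cre knockout groups also kept Cdx2 RNA, at 298 to 310 CPM with deletion labelled E15 against 139 to 143 CPM in WT E18, and at 438 to 492 CPM in adult knockout ileum against 238 to 254 CPM in adult WT. WT hindstomach at E16 had 12.1 and 13 CPM.

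The libraries labelled E13 stood apart from WT of their labelled stage. H19, an imprinted RNA abundant in fetal tissues, was at 1078, 1124 and 1295 CPM in the libraries labelled E10 and at 0.661 and 0.803 CPM in those labelled E13. In CPM of the total counts, without scaling by composition, H19 was at 1013 or more in WT small intestine at E12, E14 and E16, and at 1.63 or less in WT libraries labelled E18 and adult. The WT libraries labelled E18 had 0.114 and 0.038 CPM, and whether their stage label is right was not tested either. Igf2, the imprinted growth factor beside it, chosen after its values were seen, was at 7.2 and 7.78 CPM on that scale in the libraries labelled E13 and at 494 or more in each WT small intestine library from E12 to E16. Over 17305 genes the libraries labelled E13 had a mean Spearman correlation of 0.933 with WT E18, 0.957 with the libraries labelled as deleted at E15, 0.920 with WT adult ileum and 0.841 with WT E16. The libraries labelled E10 reached 0.807 to 0.833 with WT E16, 0.697 to 0.703 with WT E18 and 0.761 to 0.768 with those labelled E13. With WT small intestine at E14 they reached 0.807 to 0.843, and the libraries labelled E13 reached 0.934 and 0.935 with the adult Cdx2 knockout ileum. Eif2s3y, a Y-linked gene that is read in male cells, had 1613, 1231 and 199 counts in the libraries labelled E10 and 0 in both labelled E13. Ddx3y, Uty and Kdm5d, chosen after their values were seen, were also at 0 there and present in all 3 labelled E10. Xist, also chosen afterwards and read from the inactive X of female cells, had 10, 38 and 670 counts in the libraries labelled E10 and 20335 and 18165 in those labelled E13. Stage-linked and sex-linked RNA thus differed together with the labelled day of deletion, and their part in the results was not tested.

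**Figure D1:**
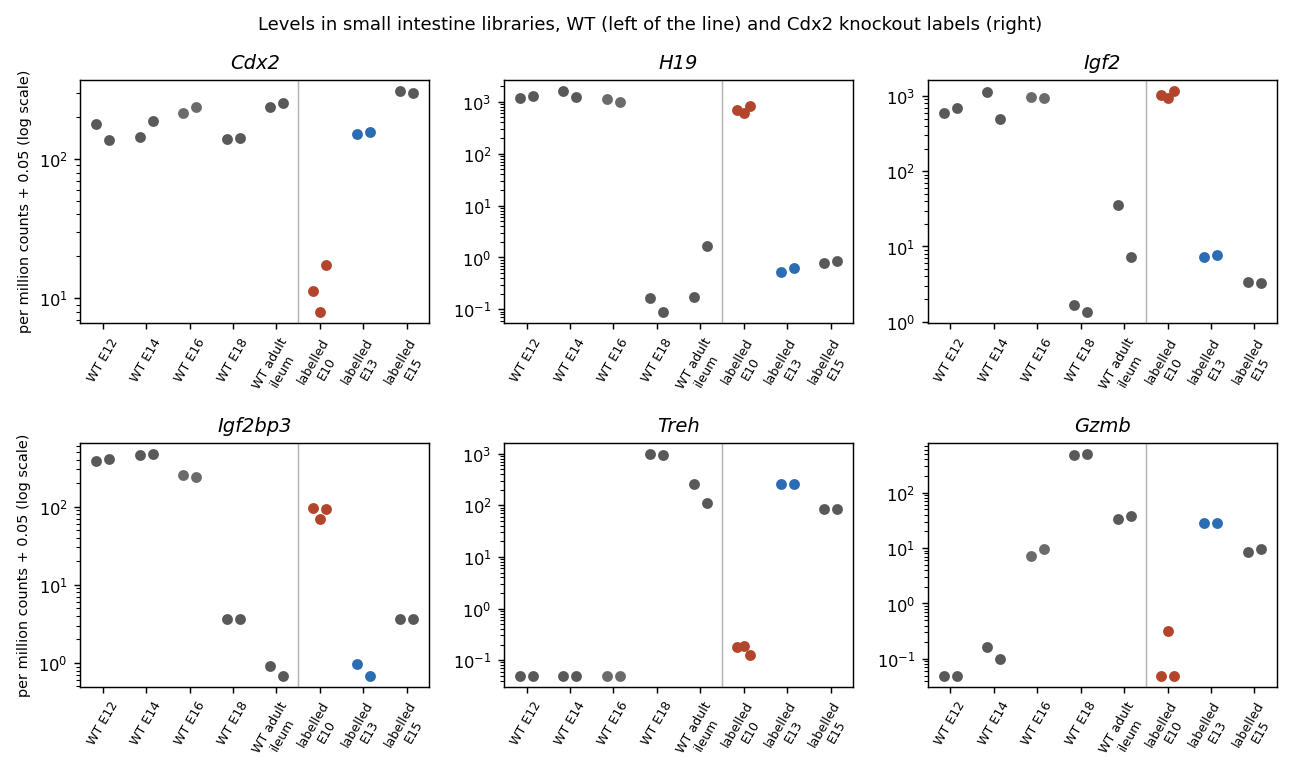
CPM of the total counts plus 0.05, on a log scale, of 6 genes in each small intestine library, with WT stages left of the grey line and the Cdx2 knockout labels right of it; each point is a library. Cdx2 in the libraries labelled E13 lies in the WT range, while H19, Igf2 and Igf2bp3 there lie near WT E18 and adult levels and far below the 3 libraries labelled E10.

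Of 17239 genes tested, 9891 were called, which is 57.4%. The genes called higher in E10 numbered 4846, or 28.1% of those tested, and the genes called lower numbered 5045, or 29.3%. Differences were often large, with 2077 called genes higher by at least 3 on the log2 scale and 1878 lower by at least 3. The values of the 3 libraries labelled E10 lay wholly above the 2 others for 35.1% of genes and wholly below for 40.6%. The E16 WT libraries lay between the 2 groups for 46.7% of called genes and for 28.3% of all genes tested. Fewer cells of a type and less RNA per cell cannot be told apart in these bulk libraries. With most genes called, a list is read below by its counts in each direction beside these shares.

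**Figure D2:**
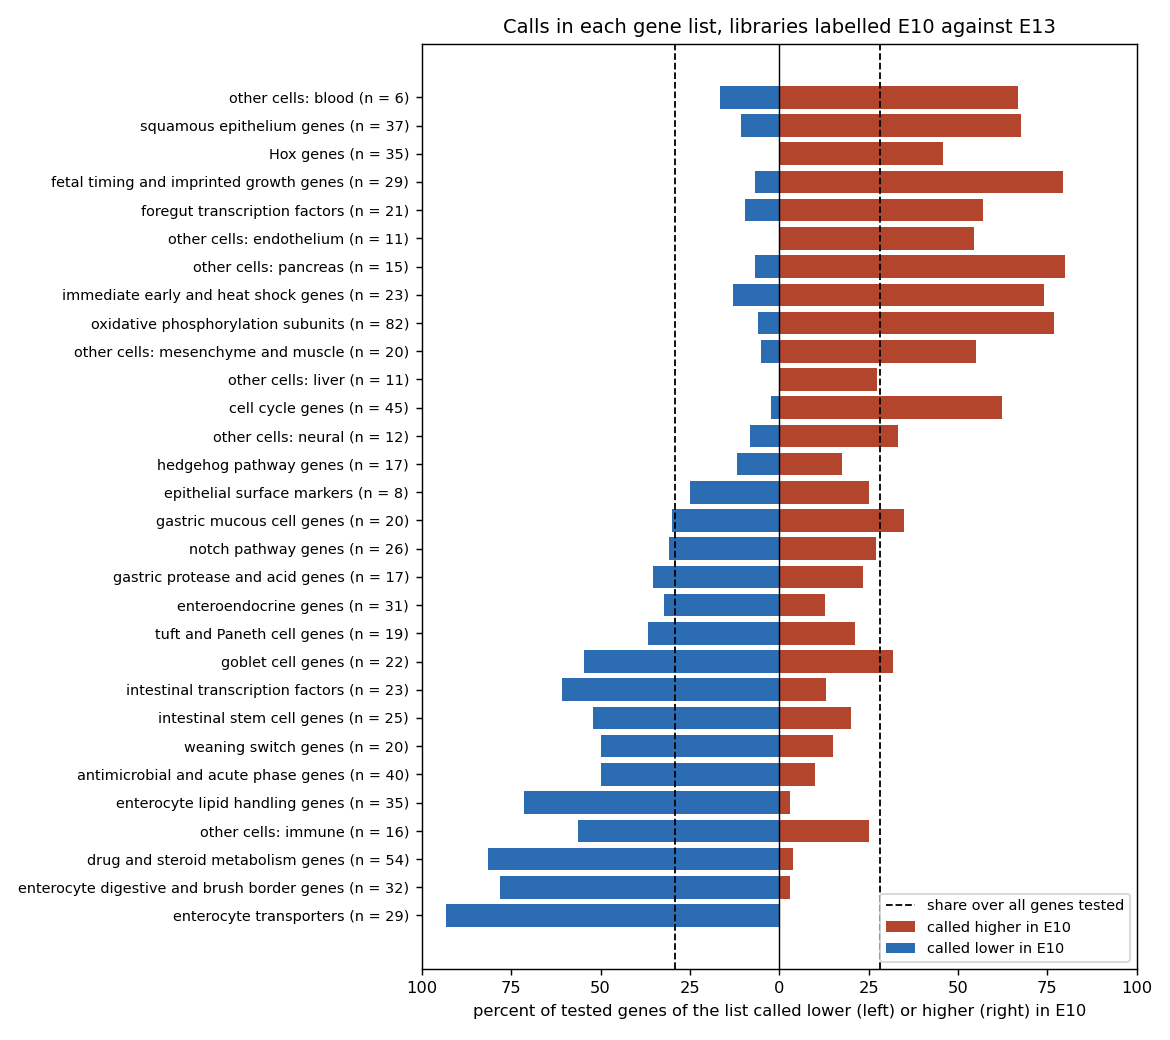
Percent of the tested genes of each list called higher (right) or lower (left) in the libraries labelled E10, with the number tested in parentheses; dashed lines give the shares over all genes tested, 28.1% and 29.3%. Enterocyte and drug metabolism lists lie far to the left, and squamous, fetal timing, pancreas and oxidative phosphorylation lists far to the right.

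Intestinal transcription factors were mostly lower in the libraries labelled E10. Of 23 tested, 14 were lower, 3 higher and 6 not called, with a median of -1.26 against 0.00 over all genes. Cdx1, the close relative of Cdx2, was at 2.40, 2.18 and 10.6 CPM in the libraries labelled E10 and at 101 and 106 CPM in those labelled E13. The third library labelled E10 was the highest of its group, and the groups did not overlap (-4.46, SE 0.54, edgeR adjusted p = 6.0e-07). Hnf4a, a nuclear receptor that drives enterocyte genes, was at 23.7, 23.3 and 44.7 against 556 and 553 CPM (-4.19, SE 0.33). Its partner Hnf4g was lower by less (-3.0, SE 0.29), and Isx, a repressor of vitamin A uptake that depends on Cdx2, ran from 0.735 to 12.8 CPM against 56.3 and 58.7. Vdr, the vitamin D receptor, had the greatest difference of the list, at 1.60, 4.45 and 2.47 against 808 and 818 CPM (-8.17, SE 0.48, edgeR adjusted p = 1.4e-11). WT small intestine at E16 had a mean of 19.4 CPM of Vdr, nearer to the libraries labelled E10. Creb3l3, a regulator of lipid genes, and Maf, a regulator of mature enterocytes, were lower by -6.11 (SE 0.49) and -5.26 (SE 0.43). The 3 that were higher are also active in foregut endoderm: Klf5 was at 1152, 758 and 656 against 113 and 114 CPM, Foxa1 differed by 2.22 (SE 0.16) and Foxa3 by 1.81 (SE 0.18).

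Foregut transcription factors went the other way. Of 21 tested, 12 were higher, 2 lower and 7 not called, with a median of 3.66. Sox2, which specifies stomach and oesophagus, was at 66.4, 70.7 and 51.3 CPM in the libraries labelled E10 and at 1.28 and 1.38 CPM in those labelled E13 (5.56, SE 0.53, edgeR adjusted p = 3.9e-08). WT forestomach at E16 had 41.4 and 35.4 CPM and WT hindstomach 32.4 and 25.1 CPM. Scaling by composition raised the CPM of the libraries labelled E10 (Cym in the first from 117312 to 180204), so their levels beside WT organs depend on the scaling. Trp63, the master regulator of stratified epithelium, was at 21.1, 19.5 and 7.91 CPM against 0.0413 and 0 CPM, at least 125-fold higher. WT forestomach had more Trp63, at 77.3 and 86.6 CPM, and WT small intestine none. Pitx1, a homeobox factor of the stomach, was at 315, 282 and 246 against 22.2 and 22.3 CPM (3.66, SE 0.26), and Irx5, an Iroquois homeobox factor, at 16.4, 17.6 and 19.4 against 0.289 and 0.446 CPM. Sox21, a partner of Sox2, was higher by 2.41 (SE 0.45), but it was no longer called after a correction for gene span (0.87, edgeR adjusted p = 0.0628). Nkx6-3, a factor of the gastric antrum, went against the list, at 17.2, 15.1 and 13 against 70.4 and 72.2 CPM (-2.24, SE 0.60, edgeR adjusted p = 0.00297).

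Genes of squamous epithelium were mostly higher in the libraries labelled E10. Of 37 tested, 25 were higher, 4 lower and 8 not called. The median was 4.89 as fitted and 4.26 with the 17 genes at the floor in the E13 libraries set at their bound. Krt5, the keratin of basal cells, was at 172, 122 and 30.8 CPM against 0.0827 and 0.134 CPM, at least 839-fold higher. Krt13, a keratin of the suprabasal layers of oesophagus and forestomach, was at 1036, 827 and 241 against 0.0413 and 0.0446 CPM, at least 5441-fold higher. Lypd2 was at 133, 265 and 204 CPM against 0 in both others, and Krt6a, a keratin of stressed and stratified epithelium, at 69.3, 48.2 and 20.8 CPM against 0. The third library labelled E10 was the lowest of its group for Krt5, Krt13 and Krt6a, and the whole list took 0.445%, 0.311% and 0.159% of counts in these libraries. WT forestomach spent 1.06% to 1.23% of counts on the list, WT small intestine at E16 0.0393% to 0.0412% and the libraries labelled E13 0.106%. Krt5 stayed below WT forestomach (1735 and 1356 CPM), while Krt13 spanned its level (636 and 584 CPM). The 4 lower genes were Itga6 and Itgb4, an integrin pair that anchors epithelium to the basement membrane, the gap junction gene Gjb2 and the stratifin gene Sfn. Itga6 was at 87.4, 98.0 and 96.2 against 472 and 472 CPM (-2.33, SE 0.11, edgeR adjusted p = 5.9e-13), and Itgb4 differed by -3.95 (SE 0.18).

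**Figure D3:**
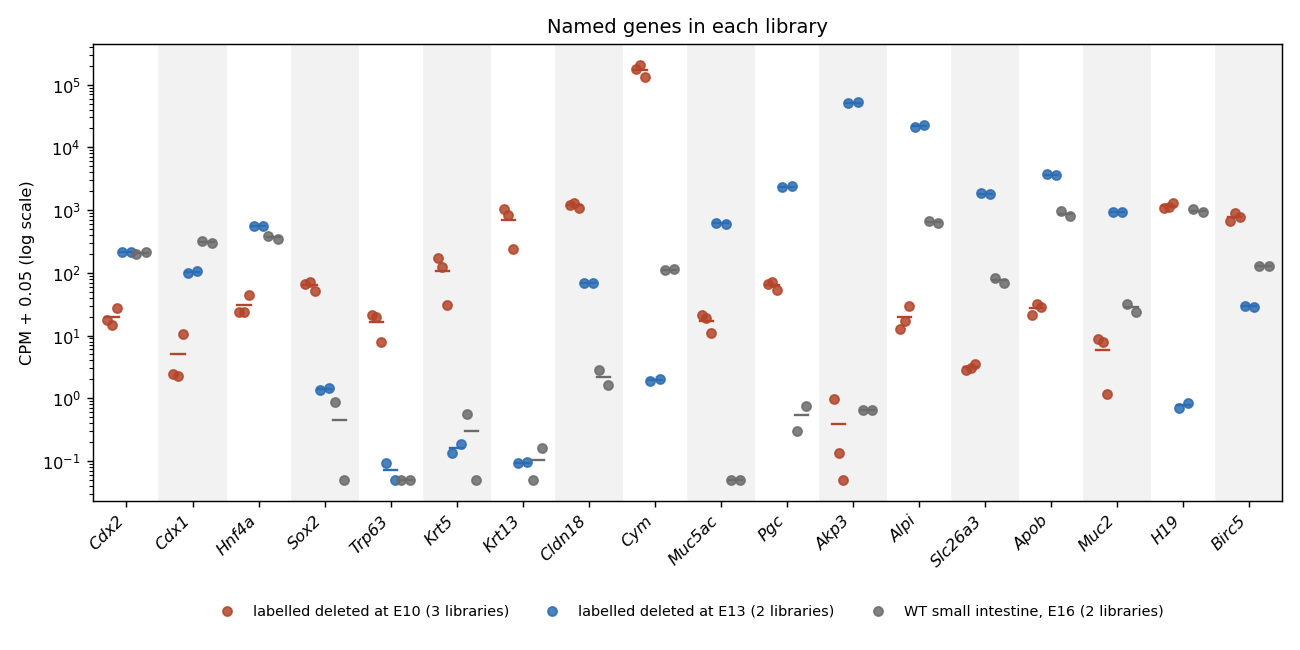
CPM plus 0.05, on a log scale, of 18 named genes in each library labelled E10 or E13 and in WT small intestine at E16; points are libraries and short lines the group means. Foregut and squamous genes and Cym are high in all 3 libraries labelled E10, while Akp3, Alpi, Slc26a3, Apob, Muc2, Muc5ac and Pgc are high in both labelled E13.

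Gastric genes were split between the groups. Of 20 mucous cell genes, 7 were higher, 6 lower and 7 not called in the libraries labelled E10 (median 0.35), and of 17 protease and acid genes 4 were higher, 6 lower and 7 not called (median -0.59). These shares lie near the background of 28.1% and 29.3%. Cldn18, a claudin of the gastric lining, was at 1199, 1282 and 1083 CPM against 69.0 and 69.9 CPM (4.10, SE 0.31, edgeR adjusted p = 1.1e-09). Muc1 was higher by 3.08 (SE 0.25) and Gkn3, a gastrokine, by 2.98 (SE 0.28). Muc5ac, the secreted mucin of gastric surface cells, went the other way, at 21.2, 18.8 and 11 CPM against 621 and 601 CPM (-5.15, SE 0.38, edgeR adjusted p = 6.6e-09). WT hindstomach at E16 had 7.01 and 7.61 CPM and WT small intestine 0. Without scaling by composition Muc5ac was at 6.95 to 13.8 CPM in the libraries labelled E10 and at 8.57 and 9.23 CPM in WT hindstomach, so these overlapped. Muc6, the mucin of gastric glands, was lower by -3.28 (SE 0.50), Fut2, which fucosylates surface mucins, by -4.03 (SE 0.76) and the calpain gene Capn9 by -4.97 (SE 0.73). Gkn1, the gastrokine of surface mucous cells, was at 1372, 4587 and 1129 CPM against 1278 and 1214 CPM and was not called (0.92, SE 0.47, edgeR adjusted p = 0.0968). Its groups overlapped through the third library, and the difference was called without the first (1.20) or the third (1.26) library labelled E10.

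Digestive proteases of the stomach also differed by gene. Cym, the milk-clotting protease chymosin of the newborn stomach, was at 180204, 207668 and 130769 CPM against 1.86 and 2.01 CPM (16.45, SE 0.51, edgeR adjusted p = 3.0e-15). It took 11.7%, 11.3% and 8.26% of all counts in the libraries labelled E10. WT hindstomach at E16 had 23161 and 21766 CPM and WT small intestine 110 and 115 CPM, so the libraries labelled E10 lay above and those labelled E13 below both. The next protein-coding gene beside Cym in the RefSeq table, A630076J17Rik, was at 87.9, 176 and 133 CPM against 0 in both, at least 1028-fold higher. Of the other neighbours, chosen after their values were seen, Kcna10 on the other side and Prok1 were too low to be tested. Slc16a4 (0.21) and Rbm15 (-0.44) were not called, while Lamtor5 (3.20) was higher. Kcna2 was also called higher but was at the floor in the libraries labelled E13. Without scaling by composition it was at 0.652, 0.591 and 1.09 CPM against 0 and 0.032 CPM. Pga5, a pepsinogen of fetal stomach, was at 59.8, 133 and 30.1 against 3.80 and 4.01 CPM (4.25, SE 0.47). Pgc, the pepsinogen that persists in adult stomach, was at 65.7, 72.0 and 52.9 against 2325 and 2402 CPM (-5.21, SE 0.30, edgeR adjusted p = 1.9e-11), and Chia1, an acidic chitinase of adult stomach, at 0.134, 0 and 0.124 against 135 and 131 CPM, at least 485-fold lower. WT hindstomach at E16 had 247 and 217 CPM of Pgc. Gif, which encodes intrinsic factor, and Kcne2, a potassium channel subunit of acid secretion, were higher by 1.15 (SE 0.47, edgeR adjusted p = 0.0408) and 2.10 (SE 0.78, edgeR adjusted p = 0.0266). Both calls were lost without the second library labelled E10 (0.73 for Gif and 1.65 for Kcne2) or without either labelled E13, and that of Gif also without the first labelled E10 or with all 31 libraries (1.21). The span correction also ended the call of Kcne2 (1.38).

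Enterocyte genes were mostly lower in the libraries labelled E10. Of 32 digestive and brush border genes, 25 were lower, 1 higher and 6 not called, with a median of -4.93 as fitted and -5.08 with 1 gene at the floor in E10 at its bound and 1 at the floor in both groups left out. Akp3, an intestinal alkaline phosphatase, was at 0.935, 0.0839 and 0 CPM against 50249 and 52575 CPM (-16.88, SE 0.61, edgeR adjusted p = 6.4e-11). It took 3.6% and 3.77% of counts in the libraries labelled E13, and WT small intestine had 0.604 and 0.600 CPM at E16 and 293 and 299 CPM at E18. Its neighbour in function, Alpi, was at 12.8, 16.7 and 29.3 against 21321 and 22322 CPM (-10.15, SE 0.60), with 676 and 615 CPM in E16 WT. Treh, the brush border enzyme that splits trehalose, was at 0.200, 0.252 and 0.124 against 370 and 367 CPM, at least 1344-fold lower, and at 0 in E16 WT. Vil1, which bundles actin in microvilli and whose promoter drives the Villin-Cre transgene, was at 27.9, 25.2 and 30.3 against 1984 and 1951 CPM (-6.15, SE 0.25, edgeR adjusted p = 2.7e-13). E16 WT had 537 and 561 CPM of Vil1. For Alpi and Vil1, E16 WT thus lay between the groups, while Akp3 and Treh were near 0 in E16 WT as in the libraries labelled E10. Alpl, the tissue-nonspecific phosphatase of fetal and foregut epithelium, was the exception, at 11.8, 8.72 and 7.91 against 0.579 and 0.401 CPM (4.26, SE 0.40).

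The classical disaccharidases did not separate the groups. Lct, lactase, was at 3.47, 6.63 and 7.53 CPM against 6.32 and 7.05 CPM, and the groups overlapped (-0.23, SE 0.33, edgeR adjusted p = 0.557). Both groups were far below E16 WT, at 483 and 423 CPM, and E18 WT, at 4919 and 4921 CPM. Sis, sucrase-isomaltase, was at 64.3, 76.8 and 0 CPM against 24.8 and 21.3 CPM and was not called (1.05, SE 0.94, edgeR adjusted p = 0.341). The third library labelled E10 decided that result: without it the difference was 1.62 and called (edgeR adjusted p = 0.00139). E18 WT had 9169 and 9281 CPM of Sis. On the unscaled values E16 WT had 7.76 and 7.49 CPM of Sis. On that scale the libraries labelled E10 had 41.9, 41.7 and 0 CPM and those labelled E13 had 17.7 and 15.3 CPM. Unlike Lct, Sis was thus below E16 WT only in the third library labelled E10. The whole digestive list took 0.0241% to 0.0267% of counts in the libraries labelled E10, 6.44% and 6.67% in those labelled E13, 0.717% to 0.759% in E16 WT and 5.92% to 5.93% in E18 WT.

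Transporters and lipid genes followed the same course. Of 29 enterocyte transporters 27 were lower and 2 not called (median -5.50 as fitted and -5.45 with genes at the floor at their bound). Slc26a3, the chloride-bicarbonate exchanger of the brush border, was at 2.81, 2.94 and 3.46 CPM against 1882 and 1782 CPM (-9.24, SE 0.24, edgeR adjusted p = 4.3e-14). Slc26a6 differed by -8.98 (SE 0.37), and Slc9a3, the sodium-hydrogen exchanger, was at 0.267, 0 and 0 against 200 and 196 CPM. E16 WT levels of these 3 lay between the groups, with means of 76.0, 85.6 and 23.1 CPM. Of 35 lipid handling genes 25 were lower, 1 higher and 9 not called (median -3.05). Apob, the scaffold of chylomicrons, was at 20.8, 31.5 and 28.7 against 3739 and 3609 CPM (-7.09, SE 0.36, edgeR adjusted p = 1.6e-12). Npc1l1, which takes up cholesterol, differed by -8.64 (SE 0.63), and Abcg8, which pumps sterols back to the lumen, was at least 392-fold lower. Fabp1, the fatty acid binding protein of proximal enterocytes, did not follow them: it ran from 561 to 2594 CPM in the libraries labelled E10 around 1725 and 1712 CPM in those labelled E13, and was not called (-0.24, SE 0.37, edgeR adjusted p = 0.577).

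**Figure D4:**
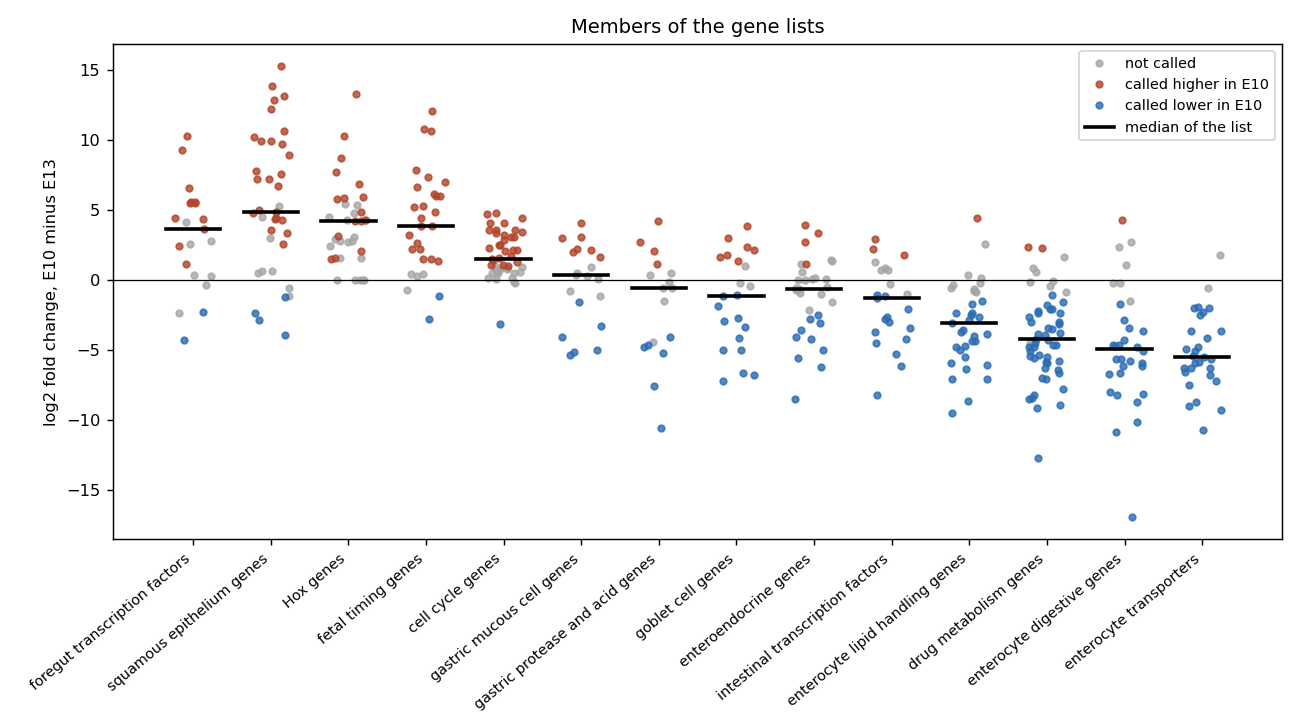
Log2 fold change, E10 minus E13, of each tested member of 14 lists, coloured by its call, with a black bar at the list median as fitted; members at the floor in a group are drawn at their fitted value, which is not a bound. Foregut, squamous, Hox, fetal timing and cell cycle members lie mostly above 0, enterocyte and drug metabolism members mostly below, and gastric members on both sides.

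Enzymes of drug and steroid metabolism were higher in the libraries labelled E13. Of 54 tested, 44 were lower, 2 higher and 8 not called in the libraries labelled E10, with a median of -4.22 as fitted and -3.88 with the 4 genes at the floor at their bound. Cyp3a11, the main steroid hydroxylase of liver and gut, was at 67.9, 54.6 and 0 CPM against 9052 and 9186 CPM, with 0 in E16 WT. On the unscaled values it was at 6488 and 6590 CPM in the libraries labelled E13, at 1428 and 1490 CPM in untreated E18 WT and at 9.76 and 541 CPM in adult WT. The other groups given tamoxifen had 637 and 706 CPM with deletion labelled E15 and 177 and 365 CPM in adult knockout ileum. Ces2c, a carboxylesterase, was at 6.81, 4.61 and 1.11 against 2195 and 2107 CPM (-8.91, SE 0.38, edgeR adjusted p = 9.1e-11). Cyp2c29 was at 0.601, 1.93 and 0 against 513 and 522 CPM, and Cyp2d9 at 0 in all 3 against 33.6 in both, at least 123-fold lower. The groups of all 4 were far apart, but DESeq2 did not call Cyp3a11 (adjusted p = 0.235), Cyp2c29 (adjusted p = 0.238) or Cyp2d9 (adjusted p = 0.159). Members of the Cyp2c, Cyp2d, Cyp3a and Ces families have close copies, and reads may be split or shared between them. Tamoxifen was given only to the group labelled E13, so it cannot be told apart from the other differences between the groups. The share of counts in the list was 3.6% to 3.63% in the libraries labelled E13, 0.870% to 1.01% in those labelled E10, 2.14% to 2.15% in E18 WT and 0.551% in E16 WT. Gstp1, a glutathione transferase, went against the list, at 844, 1226 and 918 against 209 and 196 CPM (2.30, SE 0.14), and fell under the fold minimum after the span correction (0.74).

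Secretory lineages were mixed. Among 22 goblet cell genes 12 were lower, 7 higher and 3 not called (median -1.10). The share higher, 31.8%, was near the 28.1% over all genes, and the share lower was 54.5% against 29.3%. Muc2, the gel-forming mucin of intestinal goblet cells, was at 8.75, 7.80 and 1.11 CPM in the libraries labelled E10 and at 929 and 925 CPM in those labelled E13 (-7.21, SE 0.64, edgeR adjusted p = 5.0e-09). Muc13, a membrane mucin, differed by -6.79 (SE 0.68) and Clca3 by -6.66 (SE 0.29). Among the higher members, Agr2, a disulfide isomerase of mucin folding, was at 1337, 2408 and 1846 against 238 and 234 CPM (2.98, SE 0.63). Creb3l4 was higher by 3.88 (SE 0.30) and Spdef, a regulator of secretory maturation, by 2.36 (SE 0.37). Rep15, a further goblet gene, was higher by 1.37 (SE 0.49, edgeR adjusted p = 0.0208), a call lost without the second library labelled E10 (0.99) or either labelled E13. Among 31 enteroendocrine genes 10 were lower, 4 higher and 17 not called (median -0.61). Chga, chromogranin A, was at 2.94, 1.26 and 13.8 against 259 and 263 CPM (-5.56, SE 0.60), and Tph1, which makes serotonin, at 0, 0 and 0.371 against 36.0 and 32.6 CPM. Isl1 and Pyy were higher by 3.34 (SE 0.82) and 2.75 (SE 0.68), and Pyy, which ran from 6.15 to 77.8 CPM over the libraries labelled E10, was not called after the span correction (1.24, edgeR adjusted p = 0.106). Of 19 tuft and Paneth genes 7 were lower and 4 higher, with Dclk1, a tuft cell kinase, at 0.336 CPM or less against 19.8 CPM or more (-7.37, SE 0.89) and Trpm5, its taste channel, lower by -5.09 (SE 0.99).

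Stem cell genes split by gene. Of 25 tested, 13 were lower, 5 higher and 7 not called (median -1.43). Lgr5, the receptor that marks crypt stem cells, was at 6.21, 9.23 and 4.57 CPM against 2.03 and 1.65 CPM (1.86, SE 0.34, edgeR adjusted p = 6.3e-05), and Ascl2, its transcriptional partner, at 22, 31 and 22.6 against 1.74 and 1.96 CPM (3.77, SE 0.39). E16 WT had 37.6 and 25.3 CPM of Lgr5, above all 5 libraries. Axin2, a direct Wnt target, was at 0.401, 1.09 and 3.09 against 44.7 and 50.2 CPM (-5.09, SE 0.51, edgeR adjusted p = 3.4e-08), and Rnf43, a Wnt feedback ligase, differed by -4.03 (SE 0.20). Its paralogue Znrf3 went the other way (1.69, SE 0.31).

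Fetal timing and imprinted growth genes were higher in the libraries labelled E10, and WT E18 and adult libraries share the low level of the libraries labelled E13. Of 29 tested, 23 were higher, 2 lower and 4 not called (median 3.86). Beside H19 (10.63, SE 0.24, edgeR adjusted p = 1.2e-16), Trim71, a let-7 target of early embryos, was at 5.14, 9.90 and 12.5 CPM against 0 in both, at least 71.2-fold higher. Lin28b, a brake on let-7 maturation, was at 2.87, 0 and 0.494 CPM against 0 in both. It was called (edgeR adjusted p = 0.00883) but lost its call without the first library labelled E10 (edgeR adjusted p = 0.110) or without either labelled E13. Igf2r, the clearance receptor of Igf2, was lower by -2.78 (SE 0.24). Onecut2 was lower by -1.14 (SE 0.20), a call that was lost just under the fold minimum with RLE factors and with DESeq2, and lost with the span correction (-0.39). The list took 0.318% to 0.389% of counts in the libraries labelled E10, 0.0692% to 0.0707% in those labelled E13, 0.508% to 0.544% in E16 WT and 0.0418% to 0.0419% in E18 WT.

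Of the sets defined in WT libraries, which share no library with either group, some had most calls in a single direction and some did not. Genes higher in WT small intestine at E18 than at E16 numbered 3458, of which 2375 were lower and 203 higher in the libraries labelled E10 (median -2.23). Genes lower at E18 numbered 3802, of which 2166 were higher and 276 lower (median 1.92). The weaning switch genes are a chosen list and not a set defined in WT libraries. Of the 20 weaning switch genes tested, 10 were lower, 3 higher and 7 not called (median -1.51). Ass1, an enzyme of arginine synthesis in the suckling gut, was among those higher, by 1.48 (SE 0.29). Among organ sets from WT at E14, the forestomach set of 354 genes had 170 higher (48%) and 82 lower (23.2%), with a median of 1.20. The intestine set of 436 had 108 higher (24.8%) and 206 lower (47.2%), with a median of -0.96. The hindstomach set of 239 had 83 higher (34.7%) and 78 lower (32.6%), with a median of -0.11. Both of its shares were a little above those over all genes, 28.1% and 29.3%. The 173 genes shared by both stomach regions had 65 higher (37.6%) and 59 lower (34.1%), again close to balanced (median 0.29). They took 9.53% to 13.2% of counts in the libraries labelled E10 against 1.05% to 1.06% in those labelled E13. Cym alone took 8.26% to 11.7% in the libraries labelled E10.

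Hox genes, which mark position along the gut, were higher or not called. Of 35 tested, 16 were higher and 19 not called. The median was 4.21 as fitted and 1.86 with 15 genes at their bound and 11 at the floor in both groups left out. Hoxc5 was at 67.2, 55.4 and 35.5 CPM against 0 in both, at least 409-fold higher, Hoxc4 at 66.0, 47.6 and 30.0 CPM against 0.124 and 0.0892 CPM, at least 371-fold higher, and Hoxc6 at least 79.4-fold higher. These 3 neighbours in the HoxC cluster were at 80.3 and 83.4, 25 and 28, and 14.8 and 11.5 CPM in WT forestomach, and at 1.20 CPM or less in WT small intestine at E16. The WT forestomach libraries also spent 3.11% to 3.7% of counts on mesenchyme markers and 1.69% to 2.21% on blood markers, with 0.167% to 0.174% on epithelial surface markers, so forestomach levels named here are not those of a pure epithelium.

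Cell cycle genes were higher in the libraries labelled E10. Of 45 tested, 28 were higher, 1 lower and 16 not called (median 1.53). Birc5, which encodes survivin, was at 680, 890 and 766 CPM against 29.8 and 28.8 CPM (4.73, SE 0.16, edgeR adjusted p = 1.1e-14). Ube2c, a ubiquitin enzyme of mitotic exit, differed by 4.80 (SE 0.17) and Cenpa, the centromeric histone, by 4.42 (SE 0.14). Mki67, the commonly used marker of cycling cells, was not called, at 146, 171 and 151 against 174 and 167 CPM (-0.13, SE 0.17, edgeR adjusted p = 0.538), and its sign changed with the scaling (0.02 with RLE factors). E2f2 was lower, by -3.10 (SE 0.36).

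Signalling lists showed no common direction. Of 17 hedgehog genes 3 were higher and 2 lower, Shh at 16.9, 38.8 and 21.5 against 5.21 and 5.40 CPM (2.28, SE 0.28). Its receptor and target Ptch1 was lower (-1.38, SE 0.52, edgeR adjusted p = 0.0244), a call lost when either of the first libraries or either of the second libraries of the groups was left out, and after the span correction (-0.64). Of 26 Notch genes 7 were higher and 8 lower (median -0.30). The effector Hes1 was at 1543, 1620 and 495 CPM against 33.8 and 35.2 CPM (5.14, SE 0.36, edgeR adjusted p = 1.9e-10), far above 45.2 and 52.4 CPM in E16 WT. The ligand Dll1, at 1.47, 1.26 and 2.22 against 31.9 and 33.9 CPM, was lower (-4.36, SE 0.29), as was Numb, an inhibitor of Notch (-2.76, SE 0.27).

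Among antimicrobial and acute phase genes more were lower than higher. Of 40 tested, 20 were lower, 4 higher and 16 not called (median -1.78). Pigr, which carries IgA to the lumen, was at 53.8, 76.3 and 0.741 CPM against 5339 and 5328 CPM (-6.91, SE 0.79, edgeR adjusted p = 2.0e-07), with the third library labelled E10 far below the first and second. Irf7, an interferon regulator, differed by -6.14 (SE 0.52). Wfdc2, a secreted protease inhibitor of airway and foregut epithelium, was at 1688, 3028 and 2202 against 12.9 and 13.1 CPM (7.47, SE 0.28, edgeR adjusted p = 3.6e-14) and at 8.40 and 8.57 CPM in E16 WT. Among the genes with the greatest differences over all genes, Sox11, a factor of immature cells, was at 78.1, 74.5 and 82.9 CPM against 0 in both, at least 609-fold higher, and Cyp2f2, an airway and foregut monooxygenase, at 283, 228 and 70.3 CPM against 0, at least 1503-fold higher. On the other side, Slc37a2, a sugar phosphate transporter, was at 0.401, 0.671 and 1.11 against 2088 and 2086 CPM (-11.60, SE 0.73), and Cyp4a10, a fatty acid hydroxylase, at 0 in all 3 against 176 and 175 CPM, at least 640-fold lower.

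Markers of other cells differed as well, at small summed shares of counts, which do not give the level of each gene. Of 20 mesenchyme and muscle markers 11 were higher and 1 lower, and their summed share was 0.0151% to 0.0225% of counts in the libraries labelled E10 and 0.00575% to 0.00605% in those labelled E13, against 0.191% to 0.210% in E16 WT. The difference lay in smooth muscle genes: Acta2 was at 80.3, 104 and 132 CPM against 0.331 and 0.535 CPM (7.92, SE 0.29), and Actg2 at 45.7, 65.9 and 101 against 0 and 0.0892 CPM. The collagen gene Col1a1, named after its values were seen, had means of 3.54 and 2.97 CPM in the groups labelled E10 and E13 and 307 CPM in E16 WT. Of 16 pancreas markers 15 were tested, and 12 were higher and 1 lower. Their share was 0.00991%, 0.0527% and 0.0650% over the libraries labelled E10 and 0.0151% to 0.0152% in those labelled E13, so the first library labelled E10 lay below the E13 level. Cela2a, a pancreatic elastase, was at 4.81, 192 and 161 against 3.18 and 4.37 CPM. Pdx1, which marks duodenum and antrum as well as pancreas, was lower, at 37.8, 28.6 and 25.7 against 121 and 123 CPM (-1.98, SE 0.37). Of 16 immune markers 9 were lower and 4 higher. The T cell genes Cd3e, Cd8a and Gzmb were at or near 0 in the libraries labelled E10 and at 11.1 and 13.7, 36.6 and 34.1, and 38.8 and 39.8 CPM in those labelled E13. The myeloid genes Tyrobp and Fcer1g were higher in the libraries labelled E10, with the second library at 57.0 and 51.2 CPM above the others. Of 12 blood markers 6, adult globin genes, had 0 counts in all 5 libraries, and of the 6 tested 4 were higher and 1 lower. Of the other types, 6 of 11 endothelial markers were higher and 5 not called, 4 of 12 neural markers were higher and 1 lower, and 3 of 11 liver markers were higher and 8 not called. Among 8 epithelial surface markers Krt18 and Cldn7 were higher and Cdh1 and Vil1 lower, Epcam had means of 2140 and 1215 CPM and was not called, and the Cldn7 call was lost after the span correction (0.30). The part of these cells in the results was not tested.

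Gene span moved with the comparison. The median difference was 1.90 in the shortest of 10 equal groups of genes (median RefSeq span 2493 bases) and -0.83 in the ninth (90967 bases), and returned to -0.02 in the longest (216377 bases). Against E16 WT the libraries labelled E10 went from 1.09 in the shortest to -0.63 in the ninth and -0.45 in the longest, and those labelled E13 from -0.24 to 0.21 in the ninth. A correction for span, chosen after the data were seen, moved several lists. Hox genes moved from a median of 4.21 to 2.73, with 12 higher, enterocyte transporters from -5.50 to -4.73 and stem cell genes from -1.43 to -0.77. Goblet cell genes moved from -1.10 to -1.79, with 5 higher and 9 lower. Enteroendocrine genes moved from -0.61 to -1.38, with 3 higher and 13 lower. Gastric protease and acid genes moved from -0.59 to -0.99, and tuft and Paneth genes from -0.88 to -0.46. Oxidative phosphorylation subunits had 63 higher and 5 lower of 82 (median 2.06), with Ndufb2 at 483, 931 and 947 CPM against 53.9 and 54.1 CPM (3.87, SE 0.22) and Sdha lower by -2.42 (SE 0.10). After correction the list had 48 higher and 6 lower (median 1.53). Immediate early and heat shock genes had 17 higher and 3 lower of 23 (median 2.44), with Ier2 at 2714, 1983 and 833 against 55.9 and 57.8 CPM (5.02, SE 0.34) and Hspb1 higher by 6.47 (SE 0.36), and after correction 11 higher and 5 lower (median 1.3). Enterocyte digestive genes kept their difference, with 1 higher and 24 lower (median -4.66), as did squamous genes, with 23 higher and 4 lower (median 5.02).

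**Figure D5:**
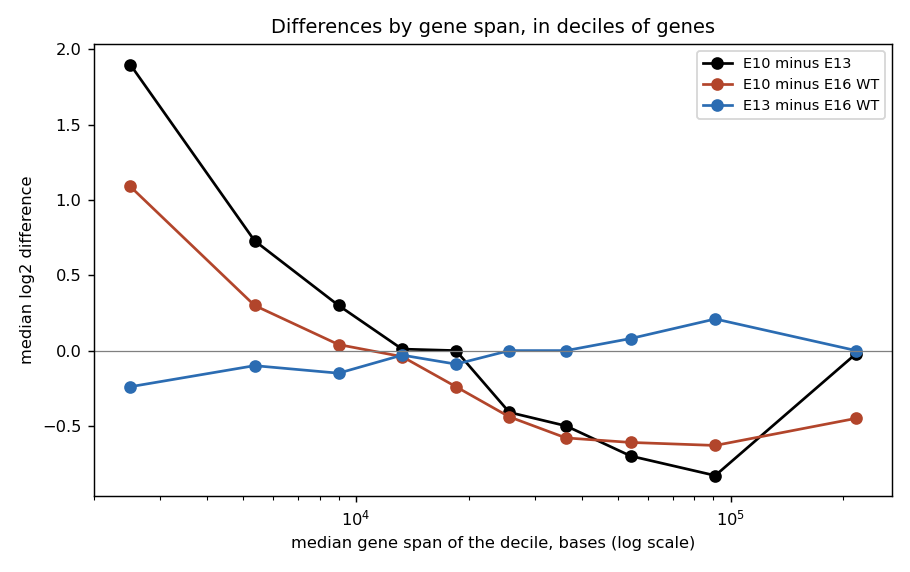
Median log2 difference (vertical axis) in 10 equal groups of genes ordered by RefSeq gene span (horizontal axis, bases on a log scale) for E10 minus E13 and for each group minus E16 WT. The E10 minus E13 line falls from 1.90 in the shortest group to -0.83 in the ninth and returns to -0.02 in the longest, and the E10 minus E16 WT line falls with it to the ninth, while the E13 minus E16 WT line stays between -0.24 and 0.21.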

How the data were processed

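RNA-seq libraries were made with SMARTer-Seq v4 and read as 75 bp single ends, per the labels' protocols. The authors deposited a table of read counts per gene for 24015 symbols, of which 22709 matched a gene name table. The submitters' processing notes name STAR 2.5.3a, HTSeq, Bowtie2, MACS2 and mm9 with no role, and strand and counting rules are not given in the sources used here, so overlapping, antisense and near-identical genes are uncertain. There were 2 columns that matched no sample and were not used.

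Counts were fitted with edgeR 4.0.16 (quasi-likelihood, TMM, Benjamini-Hochberg) in R 4.3.3 with limma 3.58.1, over 27 embryonic libraries in 13 groups, after filterByExpr with a minimum count of 10. SE was taken as log2 fold change over sqrt(F). Named genes were Cdx2, 20 always-named genes, in each list the 3 most changed called genes of either direction at a mean of 4 CPM or more, members going against their list, and the 10 per direction over all genes at 16 CPM or more, the list and all-gene choices with groups that do not overlap. Members and lists were chosen with earlier results of these data known. The script was tested on simulated data. Some named genes are not reported here. There were 17 alternatives, DESeq2 1.42.0 among them.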

Additional observations from a re-analysis of the deposited data

How the results depend on the processing

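The number of called genes was 9891, and over the alternatives it ran from 8888 with the gene span correction to 11533 with no fold change minimum, within 1.5 times throughout. Leaving out 1 library gave 8910 to 9889 calls, 4180 to 4825 higher and 4730 to 5064 lower. The larger direction turned to higher under RLE scaling (5161 higher, 4710 lower), DESeq2 (5161, 4585), a mean of at least 4 CPM (4130, 4042), all 31 libraries (4983, 4965) and the span correction (4564, 4324). Under RLE scaling the median over all genes was 0.10. The labels give no shared litter or day for a replicate number. Same-numbered libraries correlated at -0.00943 and -0.0127 in their deviations from the group mean. The deviations of the 2 libraries labelled E13 mirror each other, so this check cannot show whether a litter or day was shared. With the replicate block 9785 genes were called, 4762 higher and 5023 lower. Of these, 9369 were among the main calls in the same direction, and Sis (1.60) and Gkn1 (1.17) became calls. The span correction, the summed E13 libraries (9100 calls) and the fit without the libraries labelled E15 and E18 (9634 calls) were chosen after the data were seen. Of 160 called named genes, 140 kept their call and direction under every alternative run. Signs reversed for Fabp1 and Lct without E10 replicate 1 (leaving out 1 library gave -0.96 to 0.14 and -0.43 to 0.08), for Mki67 with RLE (0.02), DESeq2 (0.02) and the 4 CPM minimum (0.01), and with the span correction for Mki67 (0.35), Lct (0.36), Hes6 (-0.06), Nupr1 (-0.07) and Rep15 (-0.21); the cause was not tested. Where an E13 library is left out, the lone library is assumed to vary like the other groups. Genes at 3 counts or fewer in all 5 libraries, 7397 of the table, could not be compared at this depth.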

Other observations

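The libraries labelled E10 were not alike. Camp and Ngp, granule proteins of neutrophils, were at 3.14 to 232 CPM and at 4.41 to 389 CPM, highest in the second library, and at 0 in both labelled E13. Mir6236 was at 80.6, 354 and 1825 CPM against 0. Chgb, a granin of enteroendocrine cells, was at 2.20, 7.97 and 33.4 CPM against 443 and 439 CPM. The libraries labelled E13 differed little from each other, with a chi-square per degree of freedom over genes of 2.48, while the pairs labelled E10 had 50.5 to 132.

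Further genes of the other lists separated the groups. Ttr, the transthyretin carrier made by early endoderm and liver, was at 500, 910 and 866 CPM against 151 and 155 CPM (2.31). Egfl7, an endothelial matrix protein, was at 42.4, 43.5 and 55.1 CPM against 0.951 and 0.937 CPM (5.63). Ndufa4l2, a mitochondrial protein raised in low oxygen, was at 11.1, 14.2 and 7.66 CPM against 0 in both, at least 85.1-fold higher.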
